A study of Mus musculus with 32 samples.

Results

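The collagen genes were taken as every gene whose symbol in the authors' deposited comparison tables has the form Col, a type number, a and a chain number. The rule found 40 genes of 39017 in the deposited count table: 11 fibrillar collagens, 6 chains of type IV collagen (the basement membrane collagen) and 23 other collagens. Of the 40, 37 had enough reads to be tested (10 fibrillar, 5 type IV and 22 other), and Col24a1, Col4a4 and Col6a6 did not, with at most 6, 6 and 5 reads in any library. RNA was sequenced from 4 lines of mouse embryonic fibroblasts (MEFs), in 32 libraries. An ATM-deleted line (ATMko here; titled ATM neg.) and its own wild type, wtATM, made 1 pair, and an ATMIN-deleted line (ATMINko; titled ATMIN neg.) with wtATMIN made the other; the ATM kinase signals DNA breaks, and ATMIN, a zinc finger protein, is one of its binding partners. Every line received 1 µM aphidicolin (APH), which stalls replication forks by inhibiting replicative DNA polymerases, or the solvent DMSO, for 4 h or 24 h, with 2 libraries in each of the 16 groups. All cells grew in DMEM with 10% FCS. The labels give neither the alleles, the mouse strain nor the passage, and each genotype is 1 line, so the effect of a genotype and other differences between lines cannot be told apart. They also do not say whether the 2 libraries of a group came from separate cultures, so p-values measure the spread between these libraries, which may be technical.

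Collagens are triple helices of 3 polypeptide chains. Fibrillar collagens (types I, II, III, V, XI, XXIV and XXVII) are secreted as procollagens, trimmed and packed into the cross-striated fibrils of skin, bone, tendon and cartilage, and fibroblasts are their main source in connective tissue. Type IV collagen forms the sheet-like network of basement membranes, and the other collagens form beaded filaments (type VI), anchoring fibrils (type VII), hexagonal networks (types VIII and X) or membrane-spanning adhesion proteins (type XVII), or decorate the surface of fibrils (types IX, XII, XIV, XVI, XIX, XX and XXII).

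Library totals ran from 9321329 to 21020662 counts, and collagen genes took 0.853% to 2.56% of them. The median share was 2.01% in wtATM, 0.903% in ATMko, 1.01% in wtATMIN and 2.09% in ATMINko (8 libraries each). Atmin read 3.77 to 6.77 library-scaled counts (CPM) in ATMINko against 20.4 to 32.9 in wtATMIN, and Atm 17.8 to 45.5 in ATMko against 43.1 to 65.1 in wtATM, so reads of both targeted genes were lower in their knock-out but not 0, and for Atm the ranges overlapped. The fibroblast markers Vim and Fn1 were abundant in all 4 lines (medians of 1951 CPM or more and 1903 CPM or more), Pdgfra and Pdgfrb were present, and Thy1 was high only in ATMko (median 235 CPM, against at most 0.365 elsewhere). Dcn, Twist1 and Prrx1 had medians of 8.54 CPM or more in all lines. Lum was low in every line (medians of at most 1.28 CPM), and Postn had a median of 86.9 CPM in ATMko against 2.01 to 13.5 elsewhere. The basal keratin genes Krt14 and Krt5 had medians of 123 and 14.5 CPM in wtATM and at most 0.378 and 0 in the other lines. The 6 epithelial markers summed to 98.5 to 243 CPM in wtATM and to no more than 5.94 elsewhere. Medians of the epithelial gene Epcam were at or near 0 in every line. Among 5 blood cell markers, Ptprc and Adgre1 had medians of 0 in every line and Hba-a1 at most 0.463 CPM. Cd68 and Csf1r had medians of 2.04 to 4.80 and 8.80 to 13.8 CPM over the 4 lines. Both APH 4 h libraries of ATMko stood apart: replicate 2 was the shallowest (9321329 counts) and had reads in 455 of 1628 olfactory, vomeronasal and taste receptor genes (replicate 1 in 173, the other 30 libraries in 22 to 106), and their log values correlated less well (r = 0.981) than those of any other group (0.991 or more). Replicate 1 had the highest level of Gm42418, a transcript that overlaps ribosomal RNA sequence (97900 CPM, against 24362 in replicate 2).

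The chains of type I collagen were the most abundant collagen transcripts in 3 of the 4 lines. Per kilobase of transcript, which allows genes to be compared, Col1a2 and Col1a1 had the highest median levels over the 32 libraries, followed by Col5a2, Col6a1, Col3a1, Col5a1 and Col6a2. In mm10 coordinates Col1a1 (ENSMUSG00000001506) lies at chr11:94936224-94953042, plus strand, Col1a2 (ENSMUSG00000029661) at chr6:4504814-4541544, plus strand and Col3a1 (ENSMUSG00000026043) at chr1:45311538-45349706, plus strand. Col1a1 encodes the α1 and Col1a2 the α2 chain of type I collagen, the main protein of skin, tendon and bone, and together they took 26.9% to 78.8% of all collagen reads in a library. Median Col1a2 levels were 1556 CPM per kb in wtATM, 902 in ATMINko, 662 in ATMko and 154 in wtATMIN, where the 8 libraries ran from 36.5 to 392 and Col1a1, Col5a2 (286) and Col6a1 (249.9) were higher. Col1a1 followed another order, at 1412 CPM per kb in ATMINko, 1074 in wtATM, 459 in wtATMIN and 286 in ATMko. Col3a1, the single chain of type III collagen of skin and vessels, spanned 26.8 (wtATMIN) to 284 CPM per kb (ATMINko), while Col5a2 and Col5a1, the chains of the type V collagen that sets fibril diameter, stayed within 139.5 to 359 and 49.8 to 124. The cartilage-type chains were lower and more uneven: Col2a1 (type II collagen) had medians of 2.24 to 31.5 CPM per kb and Col11a1 (type XI) 1.91 to 17.2. The cartilage-type chains Col27a1 and Col11a2, and the type V chain Col5a3, had medians of at most 4.41. Among the 6 markers of cartilage, Acan had medians of 81.5 CPM in ATMINko and 21.3 in wtATMIN and at most 0.0655 in the ATM pair. Sox9 had medians of 31.0 to 71.8 CPM in the 4 lines, highest in ATMko. Comp and Hapln1 had medians of 4.55 and 2.62 CPM in wtATMIN and at most 0.210 and 0 in the other lines. Chad had medians of 0.651 to 0.809 CPM, and Matn1 was at or near 0 in all lines. The part of cartilage cells in the Col2a1 levels was not tested.

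Both chains of the common basement membrane collagen, Col4a1 and Col4a2, were highest in ATMko (70.4 and 49.0 CPM per kb) and lowest in wtATM (14.3 and 11.6), and the libraries of these 2 lines did not overlap. Col4a5, a chain of the network found in kidney and skin, ran the other way in that pair, at 14.9 CPM per kb in wtATM and 6.20 in the knock-out. Col4a3, Col4a4 and Col4a6 had medians of at most 0.245 in every line. Type VI collagen, a microfibril made of an α1, an α2 and an α3-like chain, was the most abundant of the other collagens. Col6a1 and Col6a2 were highest in wtATMIN (249.9 and 144 CPM per kb), whereas Col6a3, its usual α3 chain, had medians of 1.16 CPM per kb in wtATM, 14.2 in wtATMIN, 24.9 in ATMINko and 82.4 in ATMko. The alternative α3-like chains Col6a4, Col6a5 and Col6a6 had medians of at most 0.114 in all lines. Col12a1 and Col16a1, which sit on fibrils, Col8a1 (a network collagen of vessels and cornea), Col7a1 (anchoring fibrils below the epidermis) and Col18a1 (a basement membrane proteoglycan, the source of endostatin) filled the middle range. Col7a1 and Col17a1, the hemidesmosome collagen of basal keratinocytes, were highest in wtATM, at 37.8 and 3.29 CPM per kb, against at most 16.1 and 0.266 in the other lines; this is the line with Krt14 and Krt5 reads, and the part of keratin-expressing cells in these levels was not tested. In RNA from whole cultures, fewer cells of a type and less RNA per cell cannot be told apart.

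**Figure D1:**
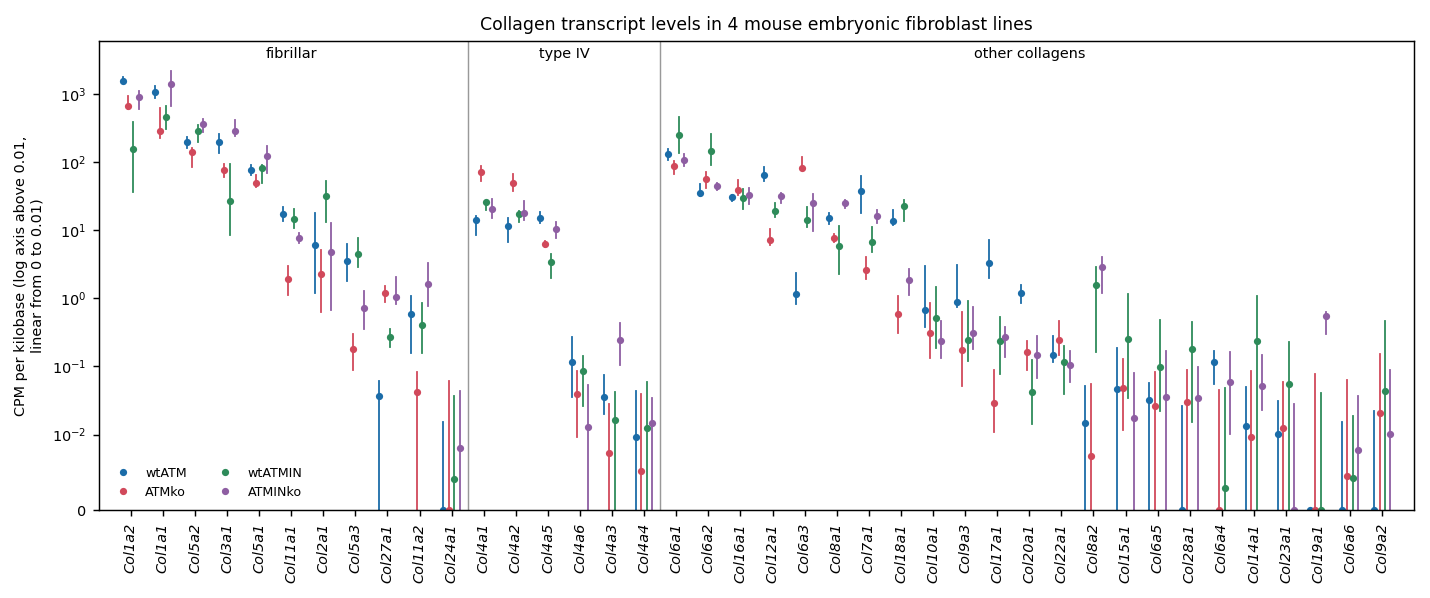
Level of each of the 40 collagen genes in CPM per kilobase, by class and ordered within a class by the median over all 32 libraries. Points are medians of the 8 libraries of a line and bars run from the lowest to the highest library; the type I chains Col1a2 and Col1a1 are highest in wtATM, ATMko and ATMINko, while Col1a2 lies below Col1a1, Col5a2 and Col6a1 in wtATMIN, and the line medians of Col6a3 and Col17a1 lie far apart.

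Promoter windows from RefSeq (GRCm38.p6, the same build as mm10; 250 bases before to 50 after a start site) were at hand for 32 of the 40 genes. The RefSeq start site of Col1a2, 4505618, lies 804 bases inside the gene as given above, whose annotation starts upstream, so its window is that of the RefSeq transcript; for the other windows shown, both starts are the same. Those of Col1a2 (chr6:4505368-4505667, plus strand) and Col3a1 (chr1:45311288-45311587, plus strand) are shown because these abundant fibrillar genes differed widely between lines, and that of Col10a1 (chr10:34389731-34390030, plus strand) because this gene rose with APH in all 4 lines. These short motifs were searched on both strands, and capitals mark each match: TATAAA (the TATA box), CCAAT (the CCAAT box, read ATTGG on the other strand) and GGGCGG (the GC box).
Col1a2: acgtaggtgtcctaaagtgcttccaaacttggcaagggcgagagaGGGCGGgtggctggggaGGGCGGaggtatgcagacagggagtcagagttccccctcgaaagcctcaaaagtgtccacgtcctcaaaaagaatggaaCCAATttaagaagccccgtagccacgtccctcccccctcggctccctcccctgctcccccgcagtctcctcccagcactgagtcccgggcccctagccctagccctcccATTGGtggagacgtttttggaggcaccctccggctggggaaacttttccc
Col3a1: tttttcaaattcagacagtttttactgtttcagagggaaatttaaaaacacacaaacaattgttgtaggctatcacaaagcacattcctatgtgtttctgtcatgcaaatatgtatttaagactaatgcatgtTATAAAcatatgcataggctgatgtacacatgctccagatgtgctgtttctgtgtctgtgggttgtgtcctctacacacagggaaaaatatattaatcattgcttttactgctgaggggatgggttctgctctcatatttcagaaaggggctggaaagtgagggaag
Col10a1: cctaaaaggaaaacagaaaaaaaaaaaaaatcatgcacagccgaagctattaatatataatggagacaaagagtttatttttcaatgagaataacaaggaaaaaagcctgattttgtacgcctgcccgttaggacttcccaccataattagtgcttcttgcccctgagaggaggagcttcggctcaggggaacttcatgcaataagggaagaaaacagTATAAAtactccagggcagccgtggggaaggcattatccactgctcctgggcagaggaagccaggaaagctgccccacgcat
The Col1a2 window held CCAAT at 2 places and GGGCGG at 2 places, whereas the Col3a1 and Col10a1 windows each held 1 TATAAA and neither of the others. A match at any place in a window was counted, and that of Col3a1 lies farther before the start site than that of Col10a1. TATAAA was in the windows of 4 of the 32 genes (13.6% of all 32851 mouse windows), CCAAT in 11 (37.4%) and GGGCGG in 21 (35.7%). A match describes the letters and is not a measured binding site.

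Col4a1 and Col4a2 lie head to head on chromosome 8 (chr8:11198423-11312826, minus strand; chr8:11312805-11449287, plus strand), with start sites at 11312826 and 11312805, so their annotated transcripts overlap by 22 bases, and whether the counting used strand is not given in the sources used here. Their windows are shown because the genes share a promoter region; the 78 bases in both (chr8:11312777-11312854) are in capitals.
Col4a1: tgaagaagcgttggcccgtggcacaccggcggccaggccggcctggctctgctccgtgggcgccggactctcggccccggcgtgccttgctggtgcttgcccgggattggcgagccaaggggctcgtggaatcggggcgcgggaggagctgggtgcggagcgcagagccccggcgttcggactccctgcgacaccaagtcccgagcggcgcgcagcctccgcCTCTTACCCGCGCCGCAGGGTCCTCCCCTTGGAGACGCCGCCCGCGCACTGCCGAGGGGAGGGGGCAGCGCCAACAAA
Col4a2: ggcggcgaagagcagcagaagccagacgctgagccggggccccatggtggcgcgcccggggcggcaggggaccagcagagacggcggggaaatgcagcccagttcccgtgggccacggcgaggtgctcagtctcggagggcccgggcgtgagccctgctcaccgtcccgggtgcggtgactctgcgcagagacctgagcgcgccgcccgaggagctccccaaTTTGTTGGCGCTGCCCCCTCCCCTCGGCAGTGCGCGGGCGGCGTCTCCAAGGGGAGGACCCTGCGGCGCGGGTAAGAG
These genes were called in the same direction wherever both were called: in 4 of 4 knock-out contrasts, 4 of 4 contrasts of 24 h with 4 h in DMSO, both contrasts of the wild-type lines and 4 of the 8 APH contrasts. The same held for Col1a1 and Col1a2, which lie on different chromosomes, and for Col5a1 and Col5a2, which also do. Both type I chains were called in 4 of 4 knock-out, 3 of 4 DMSO time, 2 of 2 wild-type and 3 of 8 APH contrasts. Col6a1 and Col6a2 were called in opposite directions in 2 of the 4 knock-out contrasts. All of these contrasts draw on the same DMSO groups, so their calls are not independent. Pairs of genes outside the collagens were not counted, so whether such agreement is unusual was not tested. Over all libraries the Col4a1 to Col4a2 ratio per length stayed between 1.04 and 1.54. Col6a1 and Col6a2, neighbours on chromosome 10 that are 85.2 kb apart on the same strand, ranged more widely, from 1.46 to 3.89.

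The knock-out lines were first compared with their own wild types in DMSO. Here and below, a gene is called, or said to rise or fall, where its Benjamini-Hochberg adjusted p from edgeR's quasi-likelihood test, over all tested genes, is under 0.05. In ATMko most collagens were lower: 6 higher and 19 lower of 37 at 4 h (of all 18484 tested genes, 27.3% and 27.9% were called higher and lower; these shares follow the collagen counts below) and 6 higher and 21 lower at 24 h (29.5% and 29.8%). Fibrillar chains were called lower in 7 and 9 of 10, with median log2 changes of −0.93 and −1.41 against −0.0029 and 0 over all genes. Col1a1 read 5184 and 5243 CPM in the 2 wtATM libraries at 24 h and 1787 and 1619 in the knock-out (−1.61 ± 0.17 log2, SE; edgeR adjusted p = 1.34e-07). Col1a2 read 8287 and 8168 CPM against 3674 and 3469 (−1.20 ± 0.073), and Col3a1 1390.4 and 1333 against 410.1 and 415 (−1.72 ± 0.072). In these genes the groups did not overlap. Col5a3, a minor type V chain, read 25.6 and 23.9 against 0.540 and 1.03 CPM (−4.98 ± 0.21). Col27a1, a fibrillar collagen of developing cartilage, was higher, with 0.110 and 0.349 CPM in wtATM and 8.93 and 6.76 in the knock-out (5.07 ± 0.35).

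Several non-fibrillar collagens were also far lower in ATMko. Col17a1 read 25.5 and 23.1 CPM in wtATM at 24 h and 0.0600 and 0.129 in the knock-out, which is 862 reads against 3 (a ratio of 262, with a 95% exact counting interval of 89.2 to 1271; called). Counting intervals here and below pool the reads of the 2 libraries in a group and leave out the spread between libraries. Col18a1 read 77.6 and 73.4 against 1.56 and 2.32 (−5.29 ± 0.20), and Col12a1 609 and 589 against 50.01 and 56.2 (−3.50 ± 0.094). Col7a1 also fell (−4.72), and Krt14 was near 0 in the knock-out, as given above; whether the 2 are linked was not tested. Col6a3 and the type IV pair were higher. Col6a3 read 9.68 and 8.48 CPM in wtATM and 794 and 762 in the knock-out at 24 h (6.42 ± 0.14) and 17.4 and 13.9 against 1110.3 and 1006 at 4 h (6.09 ± 0.14). Col4a1 read 56.4 and 57.04 against 586 and 576 CPM at 4 h (3.36 ± 0.074) and 105 and 103 against 356 and 356 at 24 h (1.77 ± 0.068), with Col4a2 alike (3.17 and 1.51), while Col4a5 fell (−1.29 and −1.36). The ratio of Col6a3 to Col6a1 per length was 0.00622 to 0.0167 in wtATM and 0.938 to 1.26 in the knock-out, with wtATMIN and ATMINko between (0.0355 to 0.390).

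In ATMINko the fibrillar collagens were mostly higher than in wtATMIN. Over all 37, 19 higher and 8 lower were called at 4 h (all genes: 21.9% and 23%) and 16 higher and 16 lower at 24 h (23.4% and 26.2%), and of 10 fibrillar chains 7 were higher at each time (medians 1.16 and 0.84). Of 10 fibroblast markers, 7 were higher in the knock-out at 4 h, and 6 higher and 2 lower at 24 h. In ATMko against wtATM, 7 were higher at 4 h, and 9 higher and 1 lower at 24 h. The part of these markers in the collagen differences was not tested in either pair. Col3a1 read 84.6 and 83.8 CPM in wtATMIN and 1597 and 1645 in the knock-out at 4 h (4.27 ± 0.081), and 532 and 524 against 2316 and 2248 at 24 h (2.11 ± 0.073). For Col1a2 the difference was 1.54 ± 0.074 at 4 h and 3.89 ± 0.081 at 24 h, when wtATMIN read 358 and 347 CPM and the knock-out 5284 and 5165. Col1a1 differed by 1.70 and 1.36. Col2a1 was lower at both times, at 24 h (269 and 261 against 4.06 and 3.41 CPM, −6.14 ± 0.13) and at 4 h (67.9 and 81.4 against 42.0 and 48.5, −0.72 ± 0.092); the other fibrillar genes lower in the knock-out were Col5a3 (−2.89 and −2.62) and Col11a1 (−0.76 and −1.18). Col18a1 was lower at both times (−3.00 and −4.22), as were Col6a1 (−0.76 and −1.85) and Col6a2 (−1.24 and −2.43), whereas Col8a1 (1.30 and 3.32), Col7a1 (1.82 and 1.06) and Col4a5 (1.66 and 1.58) were higher. Col19a1 had 22 to 44 reads in each ATMINko library and no more than 4 in any other library.

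The wild-type lines also differed from each other. Comparing wtATMIN with wtATM in DMSO, 12 collagens were called higher and 15 lower at 4 h (all genes: 28.8% and 28.4%), and 19 higher and 13 lower at 24 h (31.5% and 30.2%). Col1a2 was lower in wtATMIN, with differences of −2.22 ± 0.075 on the log2 scale at 4 h and −4.54 ± 0.084 at 24 h, and so was Col3a1, at −3.26 ± 0.078 and −1.37 ± 0.072. Col2a1 was higher by 0.63 and 5.37, Col6a3 by 3.17 and 4.53, and Col6a2 by 1.76 and 2.95. Levels also differed between 4 h and 24 h in DMSO alone, a contrast for which the labels do not say how the cultures differed apart from time. From 4 h to 24 h, 12 collagens rose and 6 fell in wtATM (all genes: 23.1% and 23.3%), 1 and 16 in ATMko (24.6% and 24.1%), 22 and 5 in wtATMIN (29.1% and 26.3%), and 8 and 11 in ATMINko (23.4% and 23.8%). With libraries scaled by their totals only, the wtATM split was 14 and 3. The number that fell in wtATM was 2 without DMSO 4 h replicate 1, 3 without DMSO 24 h replicate 1 and 2 without DMSO 24 h replicate 2, that in wtATMIN 3 without DMSO 24 h replicate 2, and the number that rose in ATMINko 5 without DMSO 4 h replicate 1. The DMSO libraries of the 2 times also differed in Gm42418, a transcript that overlaps ribosomal RNA sequence. It had 13783 to 41292 CPM in the 4 h and 252 to 2372 in the 24 h DMSO libraries. With the APH libraries included, the ranges were 13783 to 97900.0 and 252 to 5754 CPM. The part of Gm42418 in these contrasts was not tested. In wtATMIN, Col1a2 fell from 1925 and 2115 to 358 and 347 CPM (−2.52 ± 0.076), while its change in ATMko was −0.46 and in ATMINko −0.17, the last not called. Col2a1 rose in wtATMIN (67.9 and 81.4 to 269 and 261 CPM, 1.83 ± 0.088) and fell in the other lines (−2.91, −2.87 and −3.59 in wtATM, ATMko and ATMINko). Col3a1 rose in wtATMIN from 84.6 and 83.8 to 532 and 524 CPM (2.65 ± 0.077), and it rose in wtATM (0.76) and ATMINko (0.49). Col14a1, a collagen on the surface of fibrils, had 5 reads over the 2 wtATMIN libraries at 4 h and 6.90 and 6.93 CPM at 24 h (5.42 ± 0.52). The Col1a1 to Col1a2 ratio per length, which stayed between 0.367 and 2.00 in the other 3 lines, was 1.63 and 1.69 in the wtATMIN DMSO libraries at 4 h and 6.87 and 6.78 at 24 h.

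**Figure D2:**
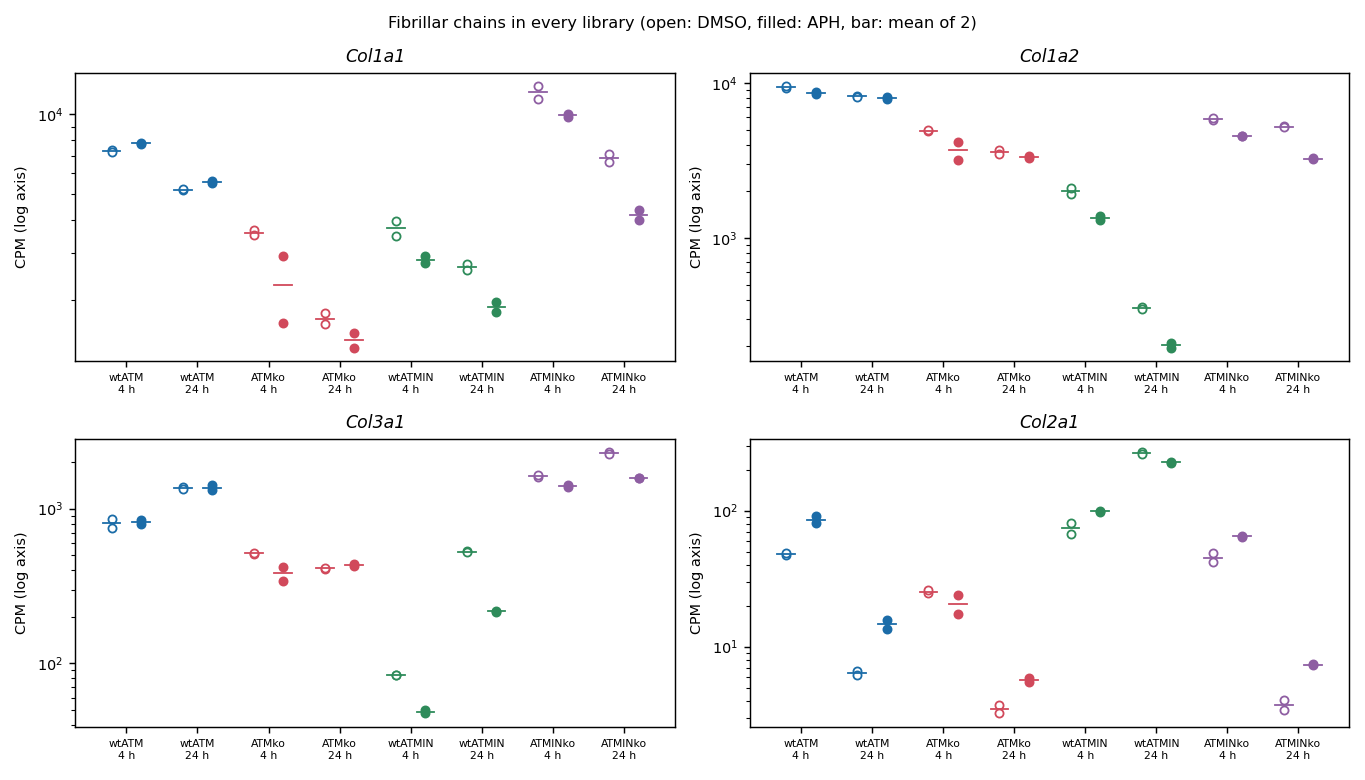
CPM (log axis) of Col1a1, Col1a2, Col3a1 and Col2a1 in each of the 32 libraries, by line and time. Open points are DMSO and filled points APH, and bars are means of 2 libraries. Col1a2 in wtATMIN is lowest at 24 h, and Col2a1 is higher at 24 h than at 4 h in wtATMIN but lower in the other lines.

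The main treatment comparison, APH against DMSO at 24 h, gave opposite balances in the 2 pairs of lines. In wtATM and ATMko most called collagens rose (13 against 1 that fell in wtATM, and 13 against 1 in the knock-out, where 14.4% and 14.3% of all genes rose and fell in wtATM and 15.7% and 12.2% in the knock-out). In wtATMIN 6 rose and 15 fell, and in ATMINko 3 rose and 13 fell (all genes: 13.6% and 15.3%, and 14.3% and 15.8%). Leaving out APH replicate 2 gave 13 calls in wtATMIN in place of 21, and leaving out DMSO replicate 1 gave 10 in ATMINko in place of 16; with libraries scaled by their totals only, the latter split was 5 and 8. The number that rose in wtATMIN was 3 without APH replicate 2, and the number that fell in ATMINko 8 without DMSO replicate 1. Of the 10 fibrillar chains 7 fell in each line of the ATMIN pair, where the median log2 changes were −0.44 and −0.43, while 1 fell in each line of the ATM pair, with medians of 0.049 and 0.061. The median over all genes lay between 0 and 0.01 in the 4 lines. Fibroblast markers changed in the same contrasts: of 10, 6 fell in wtATMIN, where their summed level was 6631 to 6801 CPM in DMSO and 4837 to 5148 in APH, and 5 fell in ATMINko (8706 to 9428 and 6297 to 6808). In wtATM 1 rose and 1 fell (4979 to 5070 and 4540 to 5038), and in ATMko 4 rose and 1 fell (7926 to 8017 and 8289 to 8481). Vim and Fn1 made up most of these sums, and Fn1, Dcn, Lum and Postn are also among the fibril partner genes counted below. The part of the fibroblast markers in the collagen changes was not tested.

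Col1a2 read 358 and 347 CPM in DMSO and 197 and 209 in APH in wtATMIN (−0.80 ± 0.074, edgeR adjusted p = 1.64e-10), and 5284 and 5165 against 3210.1 and 3289.5 in ATMINko (−0.68 ± 0.072, edgeR adjusted p = 4.13e-09). In both lines the APH libraries lay below the DMSO libraries. In wtATM it read 8287 and 8168 against 7869.9 and 8146 (−0.039 ± 0.072) and in ATMko 3674 and 3469 against 3262 and 3375 (−0.11 ± 0.072), neither of which was called. Col3a1 fell in wtATMIN from 532 and 524 to 218 and 216 CPM (−1.28 ± 0.072) and in ATMINko from 2316 and 2248 to 1588 and 1582 (−0.53 ± 0.07), against 0.0074 and 0.071 in the ATM pair. Col1a1 fell in ATMINko from 7114 and 6595 to 4007 and 4359.5 CPM (−0.71 ± 0.16). In wtATMIN it read 2728 and 2601 against 1808 and 1965 (−0.50 ± 0.16, edgeR adjusted p = 0.0285), a call that was lost without DMSO replicate 1 (−0.48), DMSO replicate 2 (−0.53), APH replicate 1 (−0.46) or APH replicate 2 (−0.57).

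Col5a1 and Col5a2, chains of the type V collagen that nucleates type I fibrils, fell in 3 lines each. Col5a1 was lower with APH in wtATMIN (−0.65 ± 0.094), ATMINko (−0.48 ± 0.094) and wtATM (−0.37 ± 0.094, lost without APH replicate 1 (−0.31)). Col5a2 fell in ATMko from 927 and 936 to 567 and 564 CPM (−0.72 ± 0.059), in wtATMIN from 1702 and 1748 to 1331 and 1322 (−0.38 ± 0.058) and in ATMINko (−0.21, lost without DMSO replicate 1 (−0.19)), but its change was −0.019 in wtATM, not called. Col5a3 moved the other way. It read 25.4 and 26.8 CPM in DMSO and 46.9 and 47.7 in APH in wtATMIN (0.86 ± 0.11) and 25.6 and 23.9 against 38.8 and 36.3 in wtATM (0.60 ± 0.12); in ATMko, where it was scarce, the rise (1.13) was lost without DMSO replicate 1 (0.72) or APH replicate 2 (1.02). Col2a1 rose in wtATM from 6.66 and 6.16 to 13.6 and 15.7 CPM (1.19 ± 0.14), in ATMko (0.71, lost without DMSO replicate 2 (0.61)) and in ATMINko from 4.06 and 3.41 to 7.39 and 7.30 (0.97 ± 0.17). In wtATMIN, where it was most abundant, it read 269 and 261 against 228 and 226 (−0.22 ± 0.083), a call lost whichever library was left out (DMSO replicate 1 (−0.22), DMSO replicate 2 (−0.25), APH replicate 1 (−0.25), APH replicate 2 (−0.23)). Col11a1 rose in wtATM (0.49 ± 0.08) and fell in wtATMIN (−0.55 ± 0.08) and ATMINko (−0.43 ± 0.086). The changes of Col27a1 were 0.10, 0.26, −0.17 and −0.028 in wtATM, ATMko, wtATMIN and ATMINko, not called.

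Of the 5 tested type IV chains, 2 rose in wtATM, 3 in ATMko and 1 in ATMINko at 24 h, with median changes of 0.27, 0.38 and 0.22, and the median in wtATMIN was 0.02. Of all tested genes, 14.4% rose in wtATM, 15.7% in ATMko and 14.3% in ATMINko. The 2 in wtATM were Col4a5 and the scarce Col4a6, which had at most 32 reads in any library. In wtATM 1 rose without DMSO replicate 2, APH replicate 1 or APH replicate 2. In ATMko Col4a1 rose from 356 and 356 to 460.5 and 467 CPM (0.38 ± 0.065) and Col4a2 from 255 and 244 to 318 and 316 (0.34 ± 0.082). In wtATM Col4a1 read 105 and 103 against 105 and 106 CPM (0.017 ± 0.069) and in wtATMIN 177 and 174 against 179 and 177 (0.02 ± 0.067), neither called; its rise in ATMINko (0.22) was lost without DMSO replicate 2 (0.20) or APH replicate 2 (0.20). Col4a5 rose in wtATM from 97.5 and 97.7 to 116 and 119.7 CPM (0.27 ± 0.069). The type VI chains Col6a1 and Col6a2 rose in the ATM pair and fell in the ATMIN pair. Col6a1 rose in wtATM (451 and 440.1 to 561 and 635 CPM, 0.42 ± 0.073) and in ATMko (270.4 and 278 to 360.4 and 355, 0.38 ± 0.074), and fell in wtATMIN (1900.3 and 1870.2 to 1321 and 1273, −0.54 ± 0.073). Col6a2 changed by 0.49, 0.40 and −0.53 in the same lines, all called. In ATMINko both fell (Col6a1 −0.25, lost without DMSO replicate 1 (−0.22) or APH replicate 1 (−0.23), and Col6a2 −0.27, lost without DMSO replicate 1 (−0.21) or APH replicate 2 (−0.24)). Col6a3 fell in wtATMIN from 199 and 221 to 119.5 and 111 CPM (−0.87 ± 0.11) and in ATMINko from 186 and 170.4 to 99.2 and 112 (−0.75 ± 0.11), and changed by 0.023 and 0.092 in the ATM pair, not called.

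**Figure D3:**
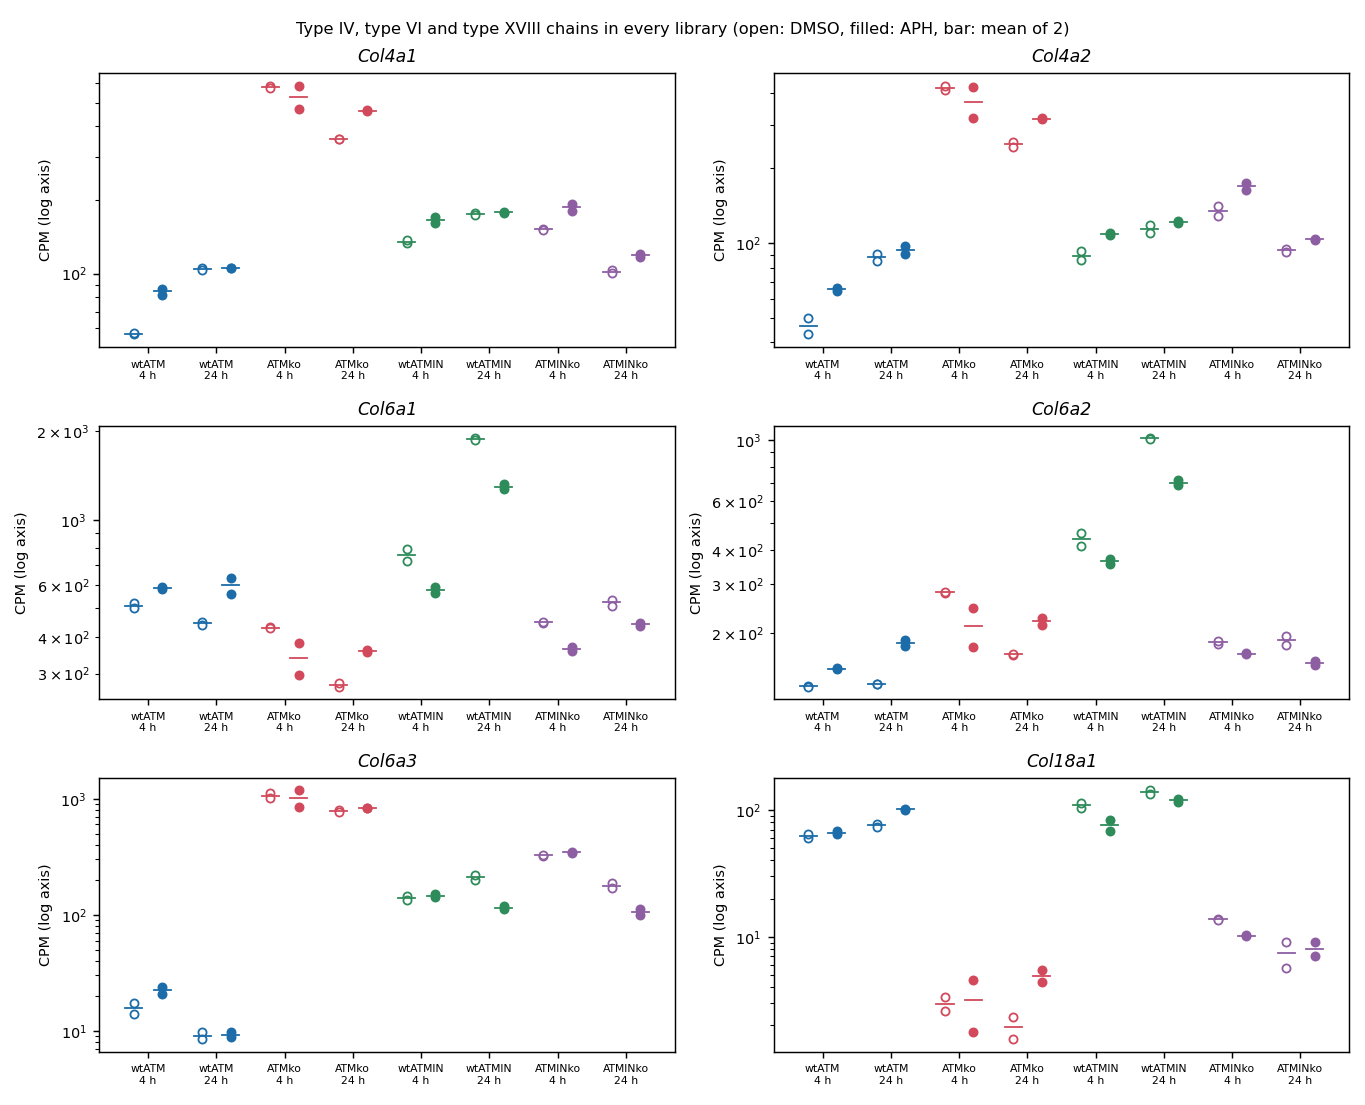
CPM (log axis) of the type IV chains Col4a1 and Col4a2, the type VI chains Col6a1, Col6a2 and Col6a3 and the basement membrane proteoglycan Col18a1 in each of the 32 libraries. Open points are DMSO, filled points APH and bars means of 2 libraries; at 24 h the APH points of Col6a1 and Col6a2 lie above DMSO in wtATM and ATMko and below it in wtATMIN and ATMINko.

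Of the 22 tested other collagens, 8 rose in wtATM and 8 in ATMko (medians 0.41 and 0.42), while 5 rose and 8 fell in wtATMIN and 1 rose and 6 fell in ATMINko (medians −0.064 and 0.098). Over all tested genes, 14.4% rose and 14.3% fell in wtATM, and 15.7% and 12.2% in ATMko. These shares were 13.6% and 15.3% in wtATMIN and 14.3% and 15.8% in ATMINko. In wtATMIN 3 rose without DMSO replicate 1, 3 rose and 5 fell without DMSO replicate 2, and 2 rose and 5 fell without APH replicate 2. In ATMINko 3 fell without DMSO replicate 1 or APH replicate 2. Col10a1, the network collagen of hypertrophic cartilage, was called higher in all 4 lines at 24 h, although it was low. It read 2.48 and 2.96 CPM in DMSO and 9.38 and 7.75 in APH in wtATM (1.66 ± 0.21, edgeR adjusted p = 1.04e-07), 0.420 and 0.515 against 2.60 and 2.67 in ATMko (2.48 ± 0.34), 2.55 and 2.80 against 3.74 and 4.61 in wtATMIN (0.64 ± 0.22) and 0.418 and 0.632 against 1.26 and 1.47 in ATMINko (1.37 ± 0.37). The wtATMIN call was lost without DMSO replicate 1 (0.55), DMSO replicate 2 (0.71) or APH replicate 2 (0.48), and that of ATMINko without DMSO replicate 1 (1.09). No other tested collagen was called in 1 direction in all 4 lines at either time. At 4 h the changes of Col10a1 were −0.41, 0.13, 0.086 and 0.017, none called. Col7a1 rose in wtATM (0.25 ± 0.07), ATMko (0.94 ± 0.091) and wtATMIN (0.84 ± 0.076). Col18a1 rose in ATMko from 1.56 and 2.32 to 5.45 and 4.37 CPM (1.35 ± 0.29) and in wtATM from 77.6 and 73.4 to 102 and 99.9 (0.42 ± 0.12, lost without DMSO replicate 2 (0.38) or APH replicate 1 (0.40)). Col17a1 rose in wtATM from 25.5 and 23.1 to 36.3 and 39.9 CPM (0.65 ± 0.14), and in wtATMIN from 1.01 and 0.426 to 1.23 and 1.71 (0.93 ± 0.35, lost without DMSO replicate 2 (0.53) or APH replicate 2 (0.68)). Col9a3, a chain of cartilage type IX collagen, rose in 3 lines (1.86, 1.68 and 1.59 in wtATM, ATMko and wtATMIN). It was scarce, with as few as 2 reads in a library. Its mean log2 CPM of 0.964 lay below 1, so these calls were not followed through fits without a library. Col8a1 fell in ATMINko (−0.37 ± 0.08), and Col12a1 read 192 and 209 against 166 and 155 CPM in wtATMIN (−0.32, lost without DMSO replicate 2 (−0.26) or APH replicate 2 (−0.28)).

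**Figure D4:**
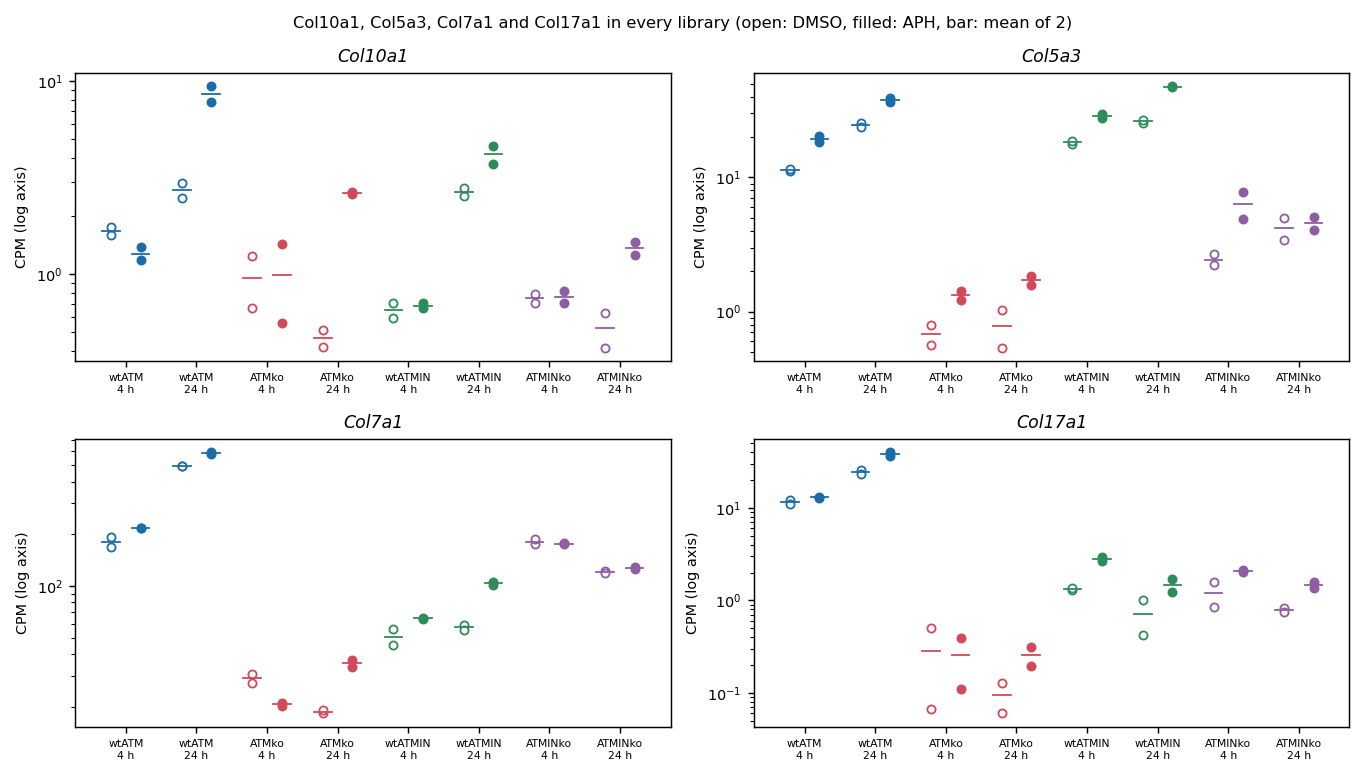
CPM (log axis) of Col10a1, Col5a3, Col7a1 and Col17a1 in each of the 32 libraries, with open points for DMSO, filled points for APH and bars for means of 2 libraries. The 24 h APH points of Col10a1 lie above the DMSO points of the same line in all 4 lines.

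The gap between the pairs was tested directly for the wild-type lines, as the APH response of wtATMIN minus that of wtATM, a contrast added after the responses had been seen. At 24 h 1 of 37 collagens had a higher and 14 a lower response in wtATMIN (all genes: 6.43% and 7.66%), with fits without 1 library calling 13 to 15. The fibrillar members were Col1a2 (−0.76 ± 0.10), Col3a1 (−1.29 ± 0.10), Col2a1 (−1.41 ± 0.16), Col11a1 (−1.04 ± 0.11) and Col5a2 (−0.36 ± 0.082). Of type VI, Col6a1 (−0.96 ± 0.10), Col6a2 (−1.03 ± 0.11) and Col6a3 (−0.89 ± 0.20) were called lower. Col7a1 was the only one called higher (0.59 ± 0.10). Col1a1 had a difference of −0.59 ± 0.23, not called (edgeR adjusted p = 0.104). At 4 h 5 collagens were called lower and none higher by edgeR (all genes: 1.04% and 1.4% higher and lower). At an unadjusted p under 0.05 there were 12 lower and 1 higher, and DESeq2 called 7 lower and 0 higher. The 5 were Col3a1 (−0.82 ± 0.10), Col11a1 (−0.78 ± 0.12), Col6a1 (−0.60 ± 0.10), Col1a2 (−0.46 ± 0.10) and Col6a2 (−0.47 ± 0.12). The count was 3 without wtATM APH replicate 2, wtATMIN DMSO replicate 2 or wtATMIN APH replicate 1; the call of Col1a2 was lost without wtATM APH replicate 2 (−0.45), wtATMIN DMSO replicate 2 (−0.40) or wtATMIN APH replicate 1 (−0.42) and that of Col6a2 in 6 of the 8 fits (without wtATM DMSO replicate 1 (−0.48), wtATM DMSO replicate 2 (−0.47), wtATM APH replicate 1 (−0.49), wtATM APH replicate 2 (−0.47), wtATMIN DMSO replicate 2 (−0.39) or wtATMIN APH replicate 1 (−0.44)).

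After 4 h of APH fewer collagens were called, with different balances by line. In wtATM 7 rose and 1 fell (all genes: 2.82% and 2.76%), against 1 and 7 in ATMko (14% and 15.4%), 6 and 8 in wtATMIN (7.25% and 7.75%), and 7 and 6 in ATMINko (9.48% and 10.9%). The 2 APH libraries of ATMko are those that stood apart. Its count of 8 was 15 without APH replicate 1, 4 without APH replicate 2 and 0 when its 4 libraries were fitted alone with edgeR (8 of 23 tested at an unadjusted p under 0.05). Counts also moved to 5 in wtATM without APH replicate 1 or APH replicate 2, to 8 in wtATMIN without APH replicate 1 and to 7 in ATMINko without APH replicate 2. The number that fell was 5 in wtATMIN without DMSO replicate 2 and 4 without APH replicate 1, and in ATMINko 3 without DMSO replicate 2 or APH replicate 1 and 2 without APH replicate 2. The single fall in wtATM, Col4a5 (−0.28), was lost without DMSO replicate 2 (−0.20), APH replicate 1 (−0.27) or APH replicate 2 (−0.30). The basement membrane chains Col4a1 and Col4a2 rose at 4 h in 3 lines. Col4a1 read 56.4 and 57.04 CPM in DMSO and 87.0 and 82.2 in APH in wtATM (0.58 ± 0.073, edgeR adjusted p = 5.64e-07), 133 and 137 against 162 and 171 in wtATMIN (0.30 ± 0.067) and 152 and 151 against 180.3 and 193 in ATMINko (0.30 ± 0.067). In ATMko it read 586 and 576 against 583 and 472 (−0.14 ± 0.065), where 1 APH library was level with DMSO and the other below it. Col4a2 changed by 0.48 in wtATM (lost without DMSO replicate 1 (0.38)), 0.29 in wtATMIN (lost without DMSO replicate 1 (0.23), APH replicate 1 (0.30) or APH replicate 2 (0.27)) and 0.33 in ATMINko (lost without DMSO replicate 1 (0.25) or APH replicate 2 (0.27)). Col4a5 fell in wtATMIN (−0.52 ± 0.094).

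Col1a2 fell at 4 h in 3 lines, with changes of −0.58 ± 0.072 in wtATMIN (1925 and 2115 to 1301 and 1393 CPM), −0.36 ± 0.072 in ATMINko (5778 and 5944 to 4579.9 and 4549) and −0.42 ± 0.072 in ATMko (4879 and 4936 to 4157 and 3197), against −0.12 in wtATM, not called. Col3a1 fell in wtATMIN from 84.6 and 83.8 to 47.4 and 49.8 CPM (−0.79 ± 0.077) and in ATMko from 511 and 518 to 423 and 340.2 (−0.43 ± 0.071). It also fell in ATMINko (−0.21 ± 0.07), a call lost without DMSO replicate 1 (−0.24), DMSO replicate 2 (−0.20), APH replicate 1 (−0.24) or APH replicate 2 (−0.19). Col1a1 fell in ATMko from 3662 and 3503 to 2934 and 1639 (−0.65 ± 0.16). In ATMko the changes of Col1a1 and Col1a2 were −1.14 and −0.63 without APH replicate 1 and −0.29 and −0.25 without APH replicate 2, all called. Col5a3 rose in wtATM (0.76 ± 0.14), wtATMIN (0.65 ± 0.12) and ATMINko, where it went from 2.21 and 2.67 to 4.89 and 7.79 CPM (1.34 ± 0.21). Col2a1 rose in wtATM (0.83 ± 0.094) and ATMINko (0.52 ± 0.093), and in wtATMIN by 0.40 (lost without DMSO replicate 1 (0.27)). Col27a1 rose in ATMINko (0.72 ± 0.17). Of type VI, Col6a1 fell in wtATMIN (−0.39 ± 0.073) and ATMINko (−0.30 ± 0.074), and in ATMko Col6a1 (−0.34, lost without APH replicate 2 (−0.17)) and Col6a2 (−0.40, lost without APH replicate 2 (−0.19)) were lower in APH.

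**Figure D5:**
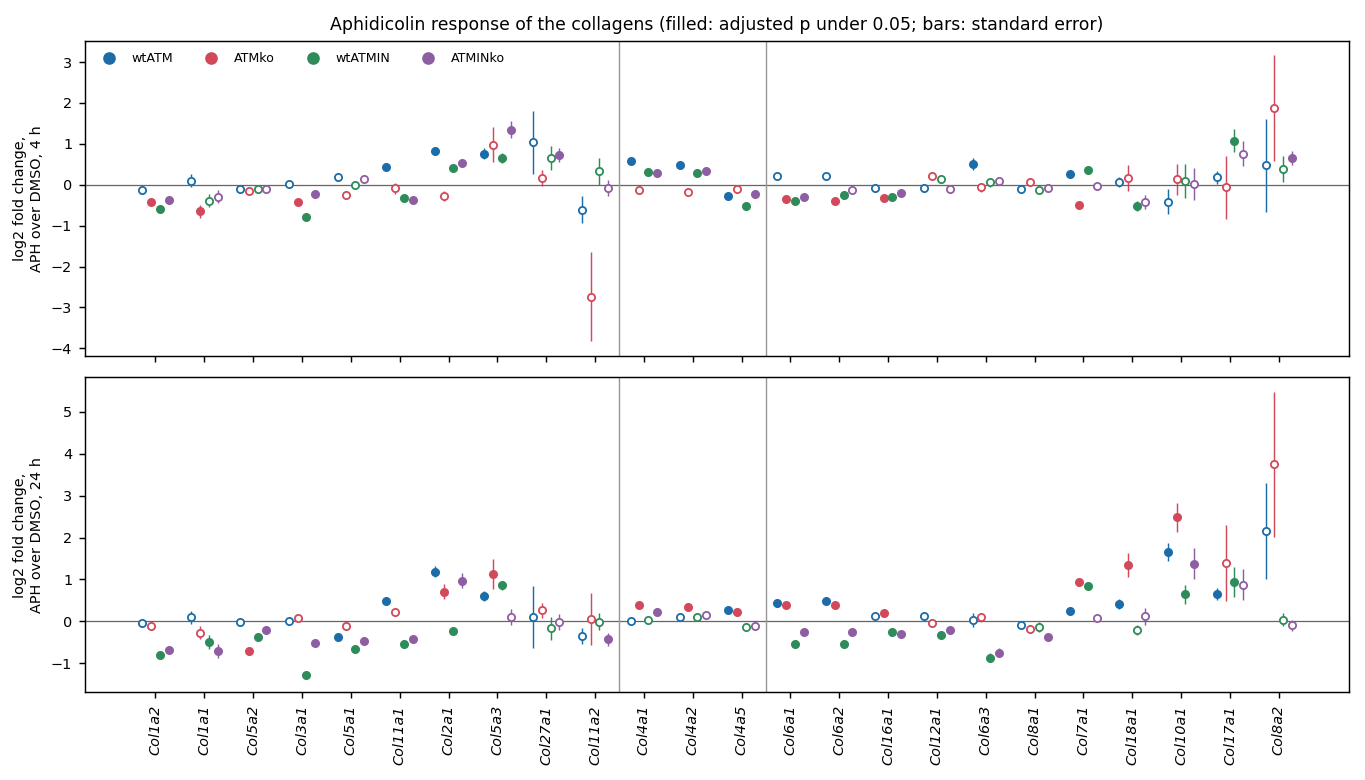
Log2 fold change of APH over DMSO at 4 h (top) and 24 h (bottom) for the 24 tested collagens with a mean log2 CPM of at least 1, by line. Bars are standard errors computed from the log2 fold change and the F statistic, and filled points have an adjusted p under 0.05. At 24 h the points of Col1a2, Col3a1, Col6a1, Col6a2 and Col6a3 lie lower in the ATMIN pair than in the ATM pair.

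The change of response from 4 h to 24 h was tested within each line. It was called higher for 4 and lower for 3 collagens in wtATM (all genes: 7.87% and 7.24%), 11 and 1 in ATMko (12.1% and 9.89%), 3 and 7 in wtATMIN (9.12% and 9.44%), and 1 and 8 in ATMINko (10.8% and 10.3%). In the last, the count of 9 was 4 without DMSO 4 h replicate 1 and 5 without APH 4 h replicate 1, and the split was 2 and 6 with libraries scaled by their totals only. Col5a1 had a lower response at 24 h in wtATM (−0.56 ± 0.13), wtATMIN (−0.64 ± 0.13) and ATMINko (−0.62 ± 0.13). Col6a3 did so in wtATMIN (−0.92 ± 0.15) and ATMINko (−0.84 ± 0.15). Col4a1 went from a rise to no call in wtATM (−0.56 ± 0.10) and the reverse in ATMko (0.52 ± 0.092). Col10a1 gained in wtATM (2.07 ± 0.38) and ATMko (2.35 ± 0.53). The APH response of each knock-out line was also compared with that of its wild-type line. At 24 h it was called for 3 collagens in the ATM pair (2 higher and 1 lower; all genes: 2.68% and 1.23%) and 4 in the ATMIN pair (3 higher and 1 lower; all genes: 1.01% and 1.42%). In the ATM pair the higher count was 1 in 7 of the 8 fits without a library, all but that without wtATM APH replicate 2 (Col7a1; the difference for Col4a1, 0.36 ± 0.095, was lost in these). Col5a2 fell more in ATMko than in wtATM (−0.70 ± 0.083, edgeR adjusted p = 5.46e-07) and Col7a1 rose more (0.69 ± 0.11); in the ATMIN pair Col3a1 fell less in the knock-out (0.75 ± 0.10) and Col2a1 had the higher response (1.196 ± 0.19). At 4 h 1 was called higher and 11 lower in the ATM pair (6.02% and 5.35%), a count that was 0 when these 8 libraries were fitted alone with edgeR (13 of 26 tested at an unadjusted p under 0.05) and 7 without wtATM APH replicate 2 or ATMko DMSO replicate 2. In the ATMIN pair 1 was called (0.346% and 0.325%), Col3a1 (0.58 ± 0.10), and the count was 2 without wtATMIN DMSO replicate 2 or ATMINko APH replicate 1. Col1a2, Col6a1 and Col6a2, which fell at 24 h in both lines of the ATMIN pair, showed no called difference there at 24 h (0.11 ± 0.10, 0.29 ± 0.10 and 0.27 ± 0.11). The lack of a call does not show equal responses. In this contrast 9 collagens were called in place of 4 when the compared groups were fitted alone.

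Collagen chains are hydroxylated, glycosylated and folded in the endoplasmic reticulum, carried out by large secretory vesicles, trimmed and cross-linked outside the cell, and bound by partner proteins and receptors. At 24 h, 14.4% and 14.3% of all tested genes rose and fell in wtATM, 15.7% and 12.2% in ATMko, 13.6% and 15.3% in wtATMIN and 14.3% and 15.8% in ATMINko, against which the counts of these lists stand. In the list of modifying and folding genes (16 tested) at 24 h, 4 rose in wtATM, 3 rose and 1 fell in ATMko, 7 fell in wtATMIN, and 1 rose and 7 fell in ATMINko, with medians of 0.065, 0.042, −0.17 and −0.11. Serpinh1 (HSP47, the collagen chaperone) fell in the ATMIN pair (−0.39 and −0.44) and changed by 0.068 and −0.078 in the ATM pair, not called. P4ha2, a prolyl 4-hydroxylase subunit, fell in the ATMIN pair (−0.64 and −0.51) and ATMko (−0.26), and P3h4, a partner of a lysyl hydroxylase, and the isomerase Fkbp10 fell in both lines of the ATMIN pair (P3h4 −0.52 and −0.67, Fkbp10 −0.22 and −0.27). Of 12 tested genes of propeptide cleavage and cross-linking, 5 fell and 2 rose in wtATMIN and 4 fell and 2 rose in ATMINko, against 2 and 3 in wtATM and 1 and 4 in ATMko. Pcolce, which enhances procollagen C-proteinase, fell in the ATMIN pair (−0.55 and −0.66). Lox, lysyl oxidase, fell there too (−0.55 and −0.27) and rose in wtATM (0.30). The fibril partners (10 tested) included 6 that fell in wtATMIN, 4 that fell and 1 that rose in ATMINko, 5 that rose in ATMko and, in wtATM, 2 that rose and 1 that fell. Ogn (osteoglycin) fell by 1.84 in wtATMIN and by 2.16 in ATMINko on the log2 scale, and Sparc fell in both (−0.32 and −0.34) and rose in ATMko (0.22). Among 8 genes of procollagen secretion no more than 2 rose and no more than 2 fell in any line at 24 h. Of 8 receptor genes, 1 rose in wtATM, 5 in ATMko, 1 rose and 1 fell in wtATMIN, and 1 rose and 2 fell in ATMINko, with medians of 0.17, 0.65, −0.11 and 0.081. Ddr1, a receptor tyrosine kinase activated by collagen, rose in all 4 lines (0.50, 0.54, 0.52 and 0.61 in wtATM, ATMko, wtATMIN and ATMINko).

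The other collagens were scarce. Col14a1, Col15a1, Col19a1, Col23a1, Col28a1, Col6a4, Col6a5, Col9a2, Col4a3 and Col4a6 passed the filter but had at most 157 reads in any library, with 2 to 20 of 32 libraries at 0. Among the calls for them at 24 h, Col15a1, a collagen at the border of basement membranes, went from 0.165 and 0 to 0.568 and 0.977 CPM in wtATM, or 3 to 25 reads (a ratio of 8.95, counting interval 2.73 to 46.3), and from 4.70 and 5.96 to 2.94 and 2.07 in wtATMIN (−1.08 ± 0.34), and Col14a1 fell in wtATMIN from 6.90 and 6.93 to 2.89 and 4.96 (−0.82 ± 0.31).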

How the data were processed

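RNA of 4 mouse fibroblast lines was measured in 32 libraries made from 1 µg of TRIzol-extracted RNA with version 2 of the TruSeq RNA kit, per the labels' protocols. The deposited table holds raw read counts per Ensembl gene; the submitters' processing notes name Bowtie2 2.4.0, TopHat2 2.0.13, DESeq2 1.6.3 and build mm10, while the counting tool, strand setting and annotation release are not given in the sources used here. The deposited comparison tables gave gene symbols and transcript lengths, and their 120 columns of per-sample values were not used. Counts were tested with edgeR 4.0.16 (R 4.3.3; filterByExpr, TMM, quasi-likelihood with robust fitting) in 1 model of all 32 libraries and 16 groups, over 18484 genes, with Benjamini-Hochberg adjustment within each of 28 comparisons and calls at an adjusted p under 0.05. The common biological coefficient of variation was 0.0643. CPM values are edgeR's counts scaled to the TMM-adjusted library size, and CPM per kb divides them by the deposited length. Log2 fold changes carry a standard error (SE) computed as the absolute log2 fold change divided by the square root of the quasi-likelihood F statistic. It is approximate where reads are few. The scripts were tested on simulated data. The members and gene lists were chosen with earlier results of these data known.

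Values per library are given for the 4 most abundant tested members of a class and the 3 (mean log2 CPM of at least 1) with the largest called changes in APH and in knock-out contrasts; other members are named freely, and up to 4 genes per pathway list by their summed p rank over the APH contrasts. The alternatives tried were DESeq2 1.42.0, RLE size factors, scaling by library totals, no filter on low counts, a replicate block, fits to the compared groups alone and fits that each left out 1 library.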

Additional observations from a re-analysis of the deposited data

Results flagged for a closer look

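These results were set aside because the APH response differed between groups by a test of the difference itself. They are log2 differences of responses from the edgeR model. At 4 h, the response of ATMko was lower than that of wtATM for Col4a1 (−0.72), Col4a2 (−0.66), Col11a1 (−0.53), Col1a1 (−0.74), Col2a1 (−1.11), Col3a1 (−0.46), Col5a1 (−0.43), Col6a1 (−0.54), Col6a2 (−0.61), Col6a3 (−0.57) and Col7a1 (−0.77), and higher for Col22a1 (1.54). Both APH 4 h libraries of the knock-out are those that stood apart, and none of these genes was called when the 8 libraries were fitted alone. Among the 8 fits without a library the call was lost in 4 for Col11a1, 6 for Col1a1, 7 for Col5a1 and 5 for Col6a3. At 24 h, the knock-out's response was higher than that of wtATM for Col4a1 (0.36) and Col7a1 (0.69) and lower for Col5a2 (−0.70). The Col4a1 call was lost in 7 of the 8 fits without a library (0.35 to 0.38).

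In the ATMIN pair the knock-out's response was higher at 4 h for Col3a1 (0.58). At 24 h it was higher for Col2a1 (1.196), Col3a1 (0.75) and Col6a5 (2.69) and lower for Col7a1 (−0.76). Col6a5, a low-abundance type VI chain, read 3.87 and 2.80 CPM in DMSO and 1.66 and 1.00 in APH in wtATMIN, while in the knock-out it read 0.358 and 0.695 in DMSO and 1.36 and 1.35 in APH.

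Other genes were called in opposite directions in the 2 responses compared. Between 4 h and 24 h the response turned from a fall to a rise for Col4a5 (0.55) in wtATM and for Col16a1 (0.52), Col6a1 (0.72), Col6a2 (0.80) and Col7a1 (1.44) in ATMko, and from a rise to a fall for Col2a1 (−0.63) in wtATMIN. Between the wild-type lines, wtATM rose and wtATMIN fell for Col11a1 (−0.78) at 4 h and for Col11a1 (−1.04), Col2a1 (−1.41), Col15a1 (−4.13), Col6a1 (−0.96) and Col6a2 (−1.03) at 24 h. The 24 h calls behind Col16a1 and the wtATMIN Col2a1 fall were lost whichever library was left out. The Col15a1 difference includes a wtATM DMSO group of 3 reads. Causes of these differences were not tested.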

How the results depend on the processing

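Of 437 gene calls, the 369 of genes with a mean log2 CPM of at least 1 were followed, of which 99 were lost under at least 1 alternative, 87 of them in a fit without a library, and none changed sign. Each group holds 2 libraries, so a fit without one assumes that the lone library varies like the rest. The counts of collagens called moved as follows. At 4 h of APH the ATMko count (8) was 14 with library size only and 0 with the compared groups alone. The ATM pair's difference of responses at 4 h (12) was 0 with the compared groups alone, and its 24 h difference (3) was 6. The ATMIN pair's difference was 2 by DESeq2 at 4 h (1) and 9 with the compared groups alone at 24 h (4). The wild-type difference at 4 h (5) was 9 without the filter. The cause of these moves was not tested. Without 1 library, the 4 h APH counts were 5 to 6 in wtATM, 4 to 15 in ATMko, 8 to 12 in wtATMIN and 7 to 10 in ATMINko. The 24 h counts were 13 to 18 in wtATMIN and 10 to 14 in ATMINko. The 4 h differences of responses were 7 to 14 in the ATM pair, 1 to 2 in the ATMIN pair and 3 to 6 between wild types, and the 24 h minus 4 h count was 4 to 8 in ATMINko. Total counts of the knock-out, DMSO time and wild-type contrasts stayed within 1.5 times of their value in every fit. With the replicate block, 3 of all calls were lost (Col1a1 in the 4 h difference of responses of the ATM pair, −0.75, edgeR adjusted p = 0.052; Col23a1 and Col20a1 in the DMSO time contrasts of wtATMIN and ATMINko, edgeR adjusted p = 0.055 and 0.0513) and 3 were gained (Col11a2, Col8a1 and Col27a1), and the block moved no total count by over 1.5 times. Same-numbered libraries correlated over 0.1 in 4 of 120 pairs (r = −0.086 to 0.07 in the APH contrasts), so the numbers were not used as pairs. Library size only shifted the median of all genes by 0.128, 0.118 and 0.115 in the DMSO time contrasts of wtATMIN and ATMINko and the wild-type contrast at 24 h. Calls of the pathway genes were not followed through the alternatives. Low read counts limit what could be detected in the scarce collagens.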

Other observations

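Collagen genes that the symbol rule did not find, because the authors' comparison tables do not list them, had hardly any reads. Over the 32 libraries Col9a1 had 7 reads, Col13a1 3, Col25a1 11 and Col26a1 1. Of the type IX chains, Col9a3 had a median of 0.876 CPM per kb in wtATM, while Col9a2 was at 0 in 17 of 32 libraries.

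Col3a1 and Col5a2 are tail-to-tail neighbours on chromosome 1, 24.6 kb apart. Where both were called, they were called in the same direction in 3 of 3 knock-out contrasts and 2 of 2 APH contrasts, and in opposite directions in both contrasts of the wild-type lines. Between the wild-type lines in DMSO, Col3a1 was lower in wtATMIN (−3.26 and −1.37 log2 at 4 h and 24 h) and Col5a2 higher (1.01 and 0.22, the latter lost without wtATM DMSO replicate 2 (0.17)). Both were called in opposite directions in 2 of the 4 contrasts of 24 h with 4 h in DMSO. These contrasts too draw on the same DMSO groups and are not independent.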
